A study of Mus musculus with 31 samples.

Results

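The 26S proteasome genes of the mouse were followed here in RNA from pulldowns aimed at tagged ribosomes of sensory neurons, and from control pulldowns without Cre. Members were the protein-coding genes whose GENCODE M21 symbol begins with Psm, a letter from a to g and a digit, with symbols containing -ps left out. The rule found 50 members among 55536 genes. They comprised 19 core genes (Psma and Psmb), 25 regulatory genes (Psmc, Psmd and Psme) and 5 inhibitor or core assembly genes (Psmf1 and Psmg1 to Psmg4). The remaining member, Psmc3ip, encodes a recombination factor that is no proteasome subunit. It counts among the members but in no class.

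RNA was isolated by translating ribosome affinity purification (TRAP), in which an eGFP-tagged ribosomal protein, L10a, is pulled down with the RNA on its ribosomes. Cre libraries came from Nav1.8-Cre;L10a-eGFP-fl/fl mice, in which Cre expressed under the Nav1.8 sodium channel (Scn10a) switches on the tag in nociceptors and related sensory neurons. Control libraries came from L10a-eGFP-fl/fl mice, which carry the same floxed tag allele without Cre. Batch 1 held central axons (lumbar dorsal root with spinal cord, 4 Cre and 4 control libraries) and somas (lumbar dorsal root ganglia, 4 and 4). Batch 2 held peripheral axons (sciatic nerve, 4 and 3) and further somas (4 and 4). Ages, pooling of animals and treatments were not given in the sources used here. The ganglia, roots, cord and nerve also contain glia, fibroblasts, vessels and, in the cord, central neurons, which are not the intended targets of Nav1.8-Cre.

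The proteasome is the protease that degrades proteins marked with ubiquitin. Its 20S core is a barrel of stacked rings, with alpha subunits gating the entrance and beta subunits carrying the proteolytic sites. The 19S regulatory particle binds ubiquitin chains, removes them, and unfolds and feeds the substrate into the core. Other activators, immunoproteasome beta subunits and assembly chaperones alter or build this machine, and in axons it takes part in growth, synaptic change and degeneration.

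The promoters of the members were read from RefSeq (GRCm38.p6) because many proteasome genes are known targets of Nrf1 (Nfe2l1), which binds antioxidant response elements. The letters TGACNNNGC, or their reverse complement GCNNNGTCA, were searched on both strands from 250 bases before to 50 bases after each gene's start. Of the 42 members with an entry, 6 held the letters (14.29%), against 3781 of 27025 symbols in the whole table (13.99%). CCAAT, searched on both strands of the same windows, occurred in 15 of the 42 members (35.7%) and in 41.1% of all symbols. The 6 windows of 30 bases below run 5′ to 3′ on the gene's strand, with the matching letters in capitals. Their span is on the build GRCm38.
Psmb6, chr11:70525338-70525367, plus strand: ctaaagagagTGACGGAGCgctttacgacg
Psmb5, chr14:54618023-54618052, minus strand: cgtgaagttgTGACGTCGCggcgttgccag
Psmc6, chr14:45329587-45329616, plus strand: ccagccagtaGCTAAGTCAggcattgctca
Psmd9, chr5:123228149-123228178, plus strand: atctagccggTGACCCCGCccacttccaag
Psmd12, chr11:107479278-107479307, plus strand: tctGCTGTGTCAcatttgcccccctcagac
Psme4, chr11:30771758-30771787, plus strand: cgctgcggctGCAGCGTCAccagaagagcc
These 6 genes span the catalytic ring, the ATPase ring, the lid, an assembly chaperone and an activator. Psmb6 and Psmb5, which encode a pair of the active-site subunits, have the letters 9 and 47 bases before the start. A match is a description of the letters and not evidence of binding.

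The library totals spanned 3.60 to 19.6 M counts, so that 3 counts, the limit that a count of 0 allows, equalled 0.153 to 0.833 CPM (counts per M counts of the library, with M for mega). Depth differed between groups, from 4.10 to 15.1 M for peripheral axon Cre and from 15.6 to 19.6 M for soma Cre of batch 2. Among the soma controls of batch 1, library 3 stood apart, with a trimmed-mean (TMM) scaling factor of 0.0547. In the same group the libraries called a and b share one header, so that neither has a number. Scn10a averaged 410 ± 88.4 and 364 ± 52.3 CPM (SD, n = 4 each) in the soma Cre libraries of batches 1 and 2. Its mean was 174 ± 168 CPM in central axon Cre and 155 ± 110 CPM in peripheral axon Cre (SD, n = 4 each). In controls it averaged 283 ± 275 and 370 ± 152 CPM (SD, n = 4 each) in the somas of batches 1 and 2. It averaged 8.00 ± 14.6 CPM (SD, n = 4, 2 libraries at 0) in central axon control and 55.2 ± 65.4 CPM (SD, n = 3, 1 library at 0) in peripheral axon control. Unless stated otherwise, levels are counts divided by the library total, and fold changes are edgeR quasi-likelihood estimates with TMM scaling, which need not equal the ratio of CPM means.

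Core and regulatory genes were both abundant on pulled-down RNA in every group. Their summed levels averaged highest in the soma Cre groups. The 19 core genes together reached 7209 ± 2176 CPM in soma Cre of batch 1 and 7695 ± 1556 CPM in batch 2 (SD, n = 4 each). They averaged 4644 ± 722 CPM in central axon Cre and 4639 ± 499 CPM in peripheral axon Cre (SD, n = 4 each). The central axon Cre libraries lay at 5600, 4510, 4614 and 3850 CPM, and soma Cre of the same batch at 8068, 7285, 9293 and 4190 CPM. The ranges therefore overlapped through 1 soma library, replicate 4, while the peripheral axon libraries (3974 to 5183 CPM) all lay below the soma libraries of batch 2 (6161 to 9822 CPM). Bulk RNA cannot tell apart fewer tagged cells, a different share of RNA from untagged cells, and less proteasome RNA per cell.

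The 25 regulatory genes differed less between compartments. Their sum averaged 5188 ± 1012 CPM in central axon Cre and 6226 ± 1131 CPM in soma Cre of batch 1 (SD, n = 4 each), with overlapping ranges. It averaged 4323 ± 282 CPM in peripheral axon Cre and 6739 ± 1113 CPM in soma Cre of batch 2 (SD, n = 4 each), without overlap. Core counts per regulatory count were 0.908 ± 0.1395 in central axon Cre and 1.14 ± 0.170 in its soma group, and 1.08 ± 0.171 in peripheral axon Cre and 1.14 ± 0.1401 in its soma group (SD, n = 4 each). The ratio ranges overlapped in both batches. In controls the core sum averaged 3333 ± 559 CPM in central axon, 3783 ± 1018 CPM in peripheral axon (n = 3), and 4785 ± 1866 and 6043 ± 1908 CPM in the somas of batches 1 and 2 (SD). No test was made on these sums.

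**Figure D1:**
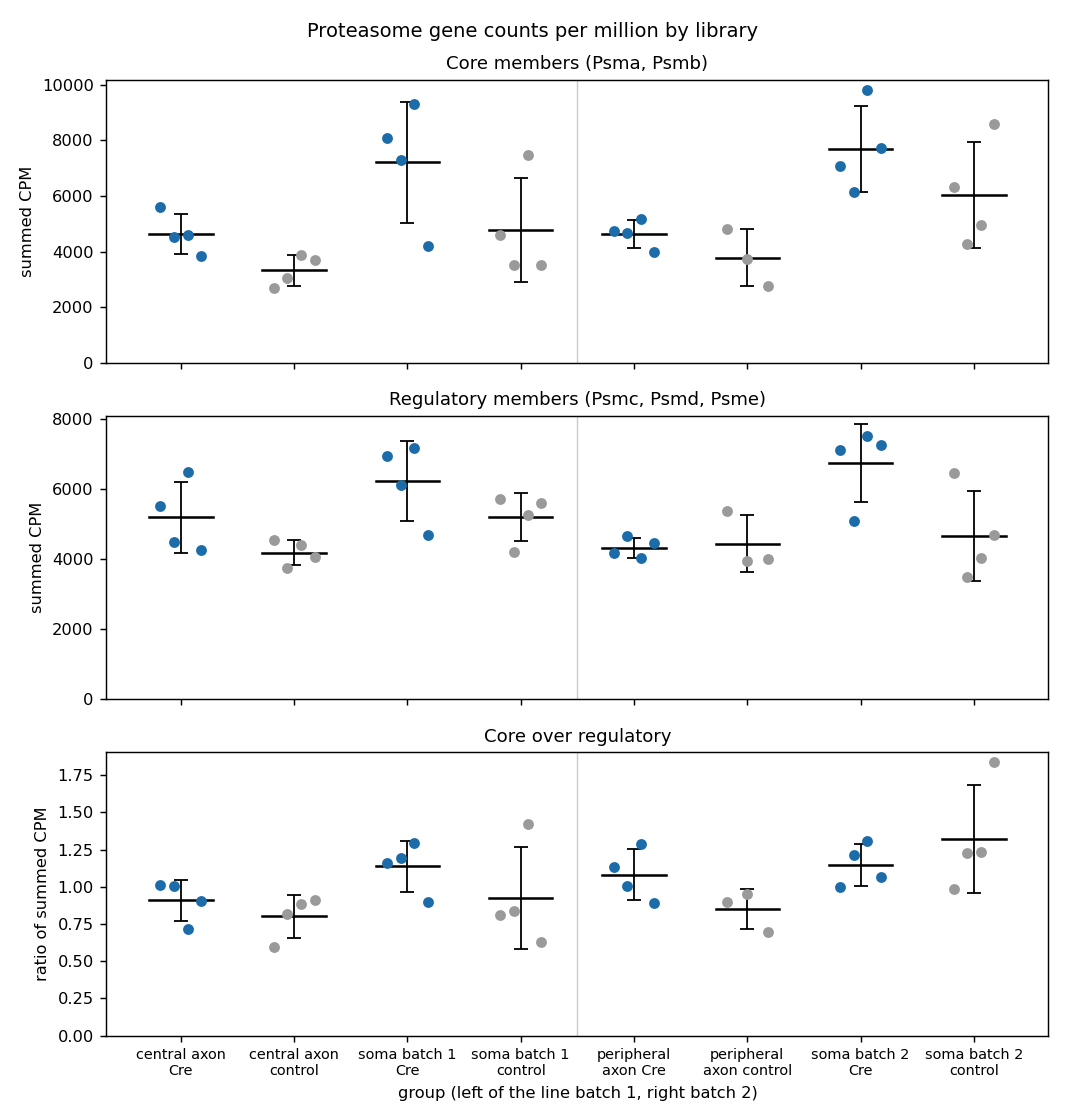
Summed CPM of the 19 core genes, summed CPM of the 25 regulatory genes, and their ratio (linear axes) in each library of the 8 groups. Points are libraries, and bars are group means with SD. Core sums averaged 4644 and 4639 CPM in the central and peripheral axon Cre groups and 7209 and 7695 CPM in the soma Cre groups.

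Levels between genes were compared as CPM per kilobase of exon. Psmb6, which encodes the caspase-like active-site subunit, ranked first in central axon Cre (452 ± 68.1), soma Cre of batch 1 (705 ± 325) and soma Cre of batch 2 (640 ± 148 CPM per kb, SD, n = 4 each). Psma7, an alpha-ring subunit, led in peripheral axon Cre at 333 ± 62.9 CPM per kb, with Psmb6 next at 315 ± 43.8 (SD, n = 4 each). Those neighbours differed by less than their SDs. Psmc5, a 19S ATPase, ranked second in central axon Cre (328 ± 57.0) and in both soma Cre groups (503 ± 155 and 527 ± 70.4 CPM per kb, SD, n = 4 each). In both soma Cre groups Psmb6 led Psmc5 by less than the SD of Psmb6. In central axon Cre, Psmc5 could not be separated from Psmb2, a structural beta subunit, at 326 ± 33.5 CPM per kb (SD, n = 4). The same held in soma Cre of batches 1 and 2, with Psmb2 at 449 ± 194 and 472 ± 132 CPM per kb (SD, n = 4 each).

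Of the 50 members, 33 had more than 3 counts in every one of the 31 libraries. Psma8, the testis alpha subunit, had no count in 23 libraries and at most 3.86 CPM. Psmb11, the thymus beta subunit, had no count in 25 libraries and at most 2.47 CPM. Psme2b, a copy of the activator gene Psme2, had a median of 0.730 CPM, and reads from near-identical genes may have been split between them. The tissue-restricted genes thus lay near the counting limit beside the general subunits.

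The marker genes given with the list are Psma1, an alpha-ring subunit, and Psmd1, the large scaffold of the 19S base. Psma1 lies on chromosome 7, from 114264606 to 114276118 (minus strand), and Psmd1 on chromosome 1, from 86064387 to 86139151 (plus strand). Psma1 measured 273, 218, 243 and 251 CPM in central axon Cre, and 384, 333, 245 and 148 CPM in soma Cre of batch 1, so the groups overlapped. It measured 170, 150, 198 and 133 CPM in peripheral axon Cre, and 409, 205, 532 and 435 CPM in soma Cre of batch 2, without overlap. Both markers had counts in all 31 libraries, though Psma1 had only 2 counts (0.393 CPM) in peripheral axon control 4. Psmd1 measured 165, 165, 286 and 147 CPM in central axon Cre, and 159, 138, 134 and 123 CPM in soma Cre of batch 1. It measured 169, 183, 179 and 197 CPM in peripheral axon Cre, and 243, 166, 150 and 193 CPM in soma Cre of batch 2. Psmd1 overlapped between axon and soma in both batches, and 4.14% of its exon length is shared with another gene on the same strand (Gm21972).

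The central axon was compared with the soma in the Cre libraries of batch 1. Proteasome members were lower in the central axon or did not pass the test, and none was higher. Of 48 members tested, 11 fell at an adjusted p under 0.05 (22.9%, edgeR with Benjamini-Hochberg adjustment over all genes). Of all 14480 genes tested, 13.7% were called in either direction and 5.11% were called lower. The estimate was below 0 for 43 of the 48 members and for 48% of all genes, and 24 members (29.2% of all genes) had an unadjusted p under 0.05. Among core members 5 of 17 fell (median log2 fold change -1.02), among regulatory members 5 of 25 (median -0.67), and among the inhibitor and core chaperones 1 of 5. The median of all genes tested was 0.05. With scaling by library size alone that median was 0.50, the core median was -0.58 and the regulatory median -0.22.

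Psmd13, a 19S lid subunit on chromosome 7 from 140881968 to 140898643, had the smallest adjusted p of the members. It measured 248, 221, 202 and 168 CPM in central axon Cre, and 556, 365, 505 and 393 CPM in soma Cre. Every axon library lay below every soma library, and the log2 fold change was -1.56 (SE 0.32, adjusted p = 0.0091 by edgeR). About 10.1% of its exon length overlaps Sirt3, and reads there may belong to either gene if the counting ignored strand.

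Psmg3, a chaperone of core assembly on chromosome 5 from 139823592 to 139826885, measured 50.3, 40.9, 26.9 and 48.5 CPM in central axon Cre. In soma Cre it measured 79.5, 74.99, 80.8 and 87.5 CPM. The groups did not overlap, the soma values were close to one another, and the log2 fold change was -1.39 (SE 0.31, adjusted p = 0.012 by edgeR). Psmb10, an immunoproteasome beta subunit on chromosome 8 from 105935735 to 105938444, measured 111, 121, 71.7 and 116 CPM in central axon Cre and 201, 155, 272 and 177 CPM in soma Cre. Its groups also did not overlap (log2 fold change -1.40, SE 0.32, adjusted p = 0.014 by edgeR).

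Psmb3, a structural beta subunit on chromosome 11 from 97703399 to 97713500, measured 177, 156, 180 and 107 CPM in central axon Cre and 328, 262, 420 and 195 CPM in soma Cre. The lowest soma library was above the highest axon library, and the log2 fold change was -1.41 (SE 0.36, adjusted p = 0.021 by edgeR). Without any one of central axon Cre 2, 3 or 4, or soma Cre 1 or 3, the adjusted p for Psmb3 was 0.053 to 0.068.

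The other 7 members that fell were the alpha subunit Psma5, the beta subunits Psmb1 and Psmb4, the ATPase Psmc6, the ubiquitin receptor Psmd4, and the 19S assembly chaperones Psmd9 and Psmd10. Their log2 fold changes ran from -1.40 for Psmb4 to -1.02 for Psma5 and Psmc6. Among all 48 tested members, 8 had every axon library below every soma library, against 4.17% of all genes. Psmb4, for example, measured 250 to 560 CPM in the axon and 693 to 892 CPM in the soma. Psmd4 measured 269 to 431 CPM in the axon and 506 to 776 CPM in the soma. The medians by role were -1.25 for the 7 constitutive beta subunits, -0.92 for the 7 alpha subunits, -0.79 for the 6 ATPases and -0.54 for the 8 lid subunits. The marker Psma1 did not pass the test (log2 fold change -0.62, SE 0.34, adjusted p = 0.25 by edgeR), nor did Psmd1 (0.02, SE 0.30, adjusted p = 0.98).

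The number of members called lower in the central axon depended on single libraries. Soma Cre 4 stood apart with low core values, and without it 24 members were called (17.1% of all genes), while 19 were called without central axon Cre 1 (18.1% of all genes). Only 3 were called without any one of central axon Cre 2, 3 or 4 or soma Cre 1 or 3 (5.5% to 9.08% of all genes), and 6 without soma Cre 2 (8.78% of all genes). With all 4 groups of batch 1 in a single fit, which share one estimate of the spread, none was called (0.0977% of all genes). Markers of other cells moved with the comparison. Astrocyte markers summed to 277 to 1238 CPM in central axon Cre (5 of 5 with a count) and 1.99 to 12.8 CPM in soma Cre. Schwann and satellite glia markers summed to 1857 to 8814 CPM against 395 to 2022 CPM (7 of 7). Markers of spinal inhibitory and motor neurons summed to 84.3 to 291 CPM (5 of 5) against 1.27 to 6.99 CPM, with Gad2, Slc6a5, Slc32a1 and Chat at 0 in soma Cre. Nociceptor markers went the other way, 1650 to 8478 CPM against 6972 to 11420 CPM. Their part in the member differences was not tested.

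The same comparison in batch 2 set the peripheral axon against the soma. More members passed the test, again all lower in the axon. Of 48 tested, 19 fell (39.6%), beside 31.2% of all 15467 genes called in either direction and 12.5% called lower. The estimate was below 0 for 43 members, against 50.9% of all genes, and 29 (42.9% of all genes) had an unadjusted p under 0.05. Core members fell in 9 of 17 cases (median log2 fold change -0.92), regulatory members in 9 of 25 (median -0.75), and Psmf1 alone of the other 5. The median of all genes was -0.03, and 0.17 with scaling by library size alone, where the core and regulatory medians were -0.68 and -0.56.

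Psmb7, the trypsin-like active-site subunit on chromosome 2 from 38588036 to 38644087, measured 103, 104, 71.3 and 116 CPM in peripheral axon Cre and 269, 211, 249 and 276 CPM in soma Cre. The groups were well apart, with a log2 fold change of -1.56 (SE 0.24, adjusted p = 0.00065 by edgeR). Psmb5, the chymotrypsin-like active-site subunit on chromosome 14 from 54614119 to 54618022, measured 187, 211, 150 and 175 CPM in the axon and 333, 408, 508 and 417 CPM in the soma. It did not overlap either (log2 fold change -1.42, SE 0.27, adjusted p = 0.0023 by edgeR). Antisense overlap covers 11.8% of the exon length of Psmb7 (Nek6), and 12.1% of that of Psmb5 lies within Mir686 on the same strand.

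Psma5, an alpha-ring subunit on chromosome 3 from 108256926 to 108279974, measured 50.1, 76.4, 70.3 and 72.6 CPM in peripheral axon Cre and 147, 96.4, 218 and 197 CPM in soma Cre. The spread within the soma was wider than in the axon, but the ranges did not meet (log2 fold change -1.49, SE 0.33, adjusted p = 0.0057 by edgeR). For Psma1, whose libraries are given above, the log2 fold change was -1.48 (SE 0.34, adjusted p = 0.0069 by edgeR). When all groups of batch 2 shared a fit, its adjusted p by edgeR became 0.24 and its estimate stayed below 0. Psmd1 did not pass the test (log2 fold change -0.23, SE 0.23, adjusted p = 0.47 by edgeR).

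By role, 4 of the 7 alpha subunits, 5 of the 7 constitutive beta subunits, 4 of the 6 ATPases and 3 of the 8 lid subunits fell. They included all 3 constitutive active-site genes. None of the 3 19S assembly chaperones or the 4 core assembly chaperones passed the test, and their medians were -0.28 and -0.33. Among the ATPases, Psmc2 measured 91.9 to 201 CPM in the axon and 170 to 352 CPM in the soma (log2 fold change -1.28, adjusted p = 0.011 by edgeR). Groups did not overlap for 15 of the 48 tested members, all lower in the axon, against 16% of all genes that were lower without overlap.

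The central and the peripheral comparison called 3 members in common, Psma5, Psmb3 and Psmd4. They were 6.25% of the 48 members tested in both, beside 1.01% of the 13680 genes tested in both that were called lower in both. The 3 make up 27.3% of the 11 called in the central comparison and 15.8% of the 19 called in the peripheral one. Among all 48 members tested, the shares called were higher, 39.6% in the peripheral and 22.9% in the central comparison. Of all genes called lower, 138 were lower in both, 18.6% of the 740 called centrally and 7.15% of the 1929 called peripherally.

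**Figure D2:**
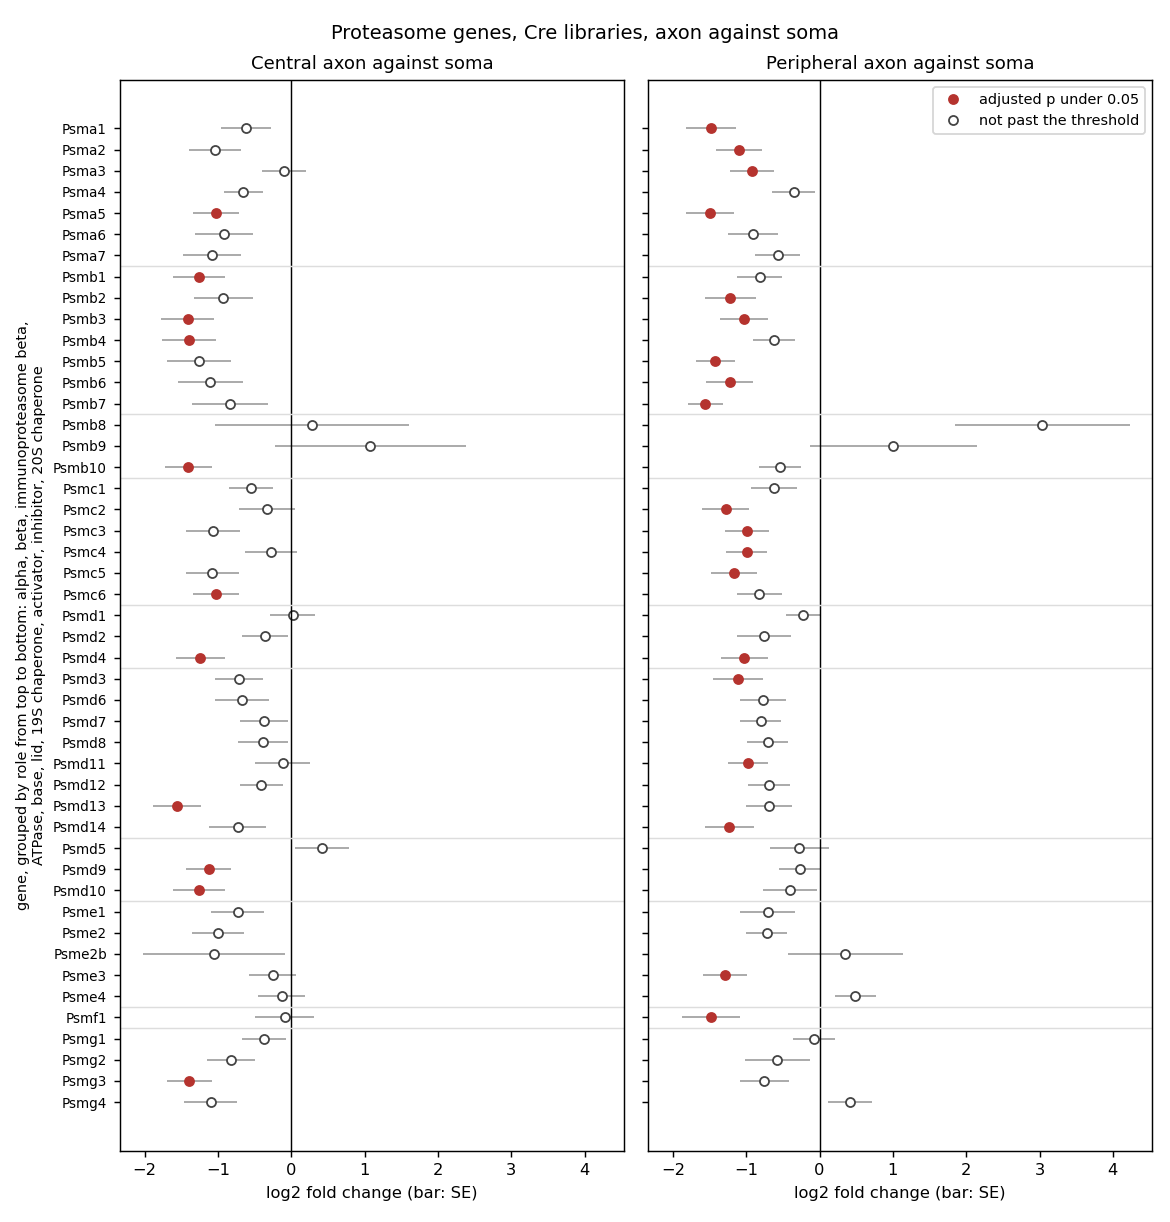
Log2 fold change of axon against soma in Cre libraries for 47 members, central (batch 1) and peripheral (batch 2), with standard errors, ordered by role. Filled points passed an adjusted p of 0.05, which 11 members did in the central and 19 in the peripheral comparison, all below 0.

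The peripheral count also moved with single libraries. It ranged from 9 members called without soma Cre 7 (20.8% of all genes), and 11 without soma Cre 8 (20% of all genes), up to 25. With all groups of the batch in a single fit, 9 were called (8.93% of all genes). Markers of other cells again moved with the comparison. Schwann and satellite glia markers summed to 9740 to 26230 CPM in peripheral axon Cre and 611 to 821 CPM in soma Cre (7 of 7 with a count). Fibroblast markers summed to 3816 to 6686 CPM against 173 to 364 CPM (6 of 6), and skeletal muscle markers to 551 to 2114 CPM against 12.6 to 66.3 CPM (5 of 5). Nociceptor markers summed to 1025 to 4282 CPM against 7252 to 8983 CPM. The part of these cells in the member differences was not tested.

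Whether the central and peripheral axons differed from each other was tested as the difference of their fold changes, each relative to the soma of its own batch. No member passed: 0 of 48 by edgeR, beside 13.1% of all genes, and 1 by DESeq2. At an unadjusted p under 0.05 there were 7 members, against 28.6% of all genes. The medians were 0.22 for core, 0.26 for regulatory and 0.26 for all genes. The member nearest to the threshold was Psmg4, a core assembly chaperone. It measured 29.1 to 74.8 CPM in central axon and 63.4 to 104 CPM in soma of batch 1, and 54.8 to 97.4 CPM in peripheral axon and 40.9 to 60.1 CPM in soma of batch 2. The difference of its log2 fold changes was -1.35 (SE 0.47, adjusted p = 0.065 by edgeR). Psme3 (1.1998, adjusted p = 0.077) and Psmf1 (1.54, adjusted p = 0.093) had estimates above 0. Without peripheral axon Cre 1, 2 members were called higher (14.1% of all genes called), and without central axon Cre 1, 1 was called lower (12.3%).

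The catalytic genes were followed in their alternative forms. In immune tissue, or under interferon, Psmb8, Psmb9 and Psmb10 replace the active-site subunits encoded by Psmb5, Psmb6 and Psmb7, which makes the immunoproteasome. Psmb6 measured 981, 878, 853 and 675 CPM in central axon Cre, and 1485, 1381, 1933 and 482 CPM in soma Cre of batch 1. It measured 474, 592, 657 and 638 CPM in peripheral axon Cre, and 970, 1020, 1582 and 1218 CPM in soma Cre of batch 2. Peripheral axon and soma did not overlap for Psmb6 (log2 fold change -1.22, SE 0.32, adjusted p = 0.013 by edgeR), while central axon and soma overlapped only through soma Cre 4 (-1.10, SE 0.44, adjusted p = 0.11).

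Psmb5 measured 251, 198, 157 and 157 CPM in central axon Cre, and 514, 370, 351 and 109 CPM in soma Cre of batch 1. Psmb7 measured 126, 107, 128 and 102 CPM in the same axon libraries, and 225, 192, 161 and 21.8 CPM in the soma ones. In both genes soma Cre 4 was the lowest of the 8 libraries and the other 3 soma libraries lay above the axon. Neither passed the test in the central comparison (adjusted p = 0.073 for Psmb5 and 0.31 for Psmb7, edgeR).

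Psmb8 had at most 3 counts in 14 of the 31 libraries, and Psmb9 in 13. Psmb8, on chromosome 17 from 34197721 to 34201454, had no count in 11 libraries. Its highest value was 16.4 CPM (67 counts, 95% Wilson interval 12.9 to 20.8, counting error only) in peripheral axon Cre 3. Psmb9, 9956 bases away, had no count in 12 libraries and its highest value, 55.9 CPM (453 counts, interval 51.0 to 61.3), was in central axon control 3. Neither gene passed the test between axon and soma. For Psmb8, at 0, 5.31, 16.4 and 2.43 CPM in peripheral axon Cre and 0.562, 0.964, 0.407 and 0.801 CPM in its soma, the log2 fold change was 3.04 (SE 1.19, adjusted p = 0.072 by edgeR). Macrophages and other immune cells are known to express both genes. Macrophage and microglia markers (7 genes) summed to 46.6 to 125 CPM in peripheral axon Cre and 20.1 to 35.4 CPM in its soma, and their part in these values was not tested.

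Psmb10 was the immunoproteasome gene with steady counts in the Cre groups. It measured 101, 130, 119 and 78.9 CPM in peripheral axon Cre and 103, 168, 148 and 128 CPM in soma Cre of batch 2. Those groups overlapped, and the log2 fold change was -0.54 (SE 0.29, adjusted p = 0.17 by edgeR). Per kilobase, the 3 immunoproteasome genes made up 8.42 ± 2.24% of the 6 catalytic genes in central axon Cre and 10.7 ± 2.05% in peripheral axon Cre (SD, n = 4 each). In somas the share was 11.5 ± 6.79% in batch 1, with soma Cre 4 at 21.5%, and 6.48 ± 1.37% in batch 2 (SD, n = 4 each). The constitutive genes therefore held most of the catalytic RNA in every Cre group.

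**Figure D3:**
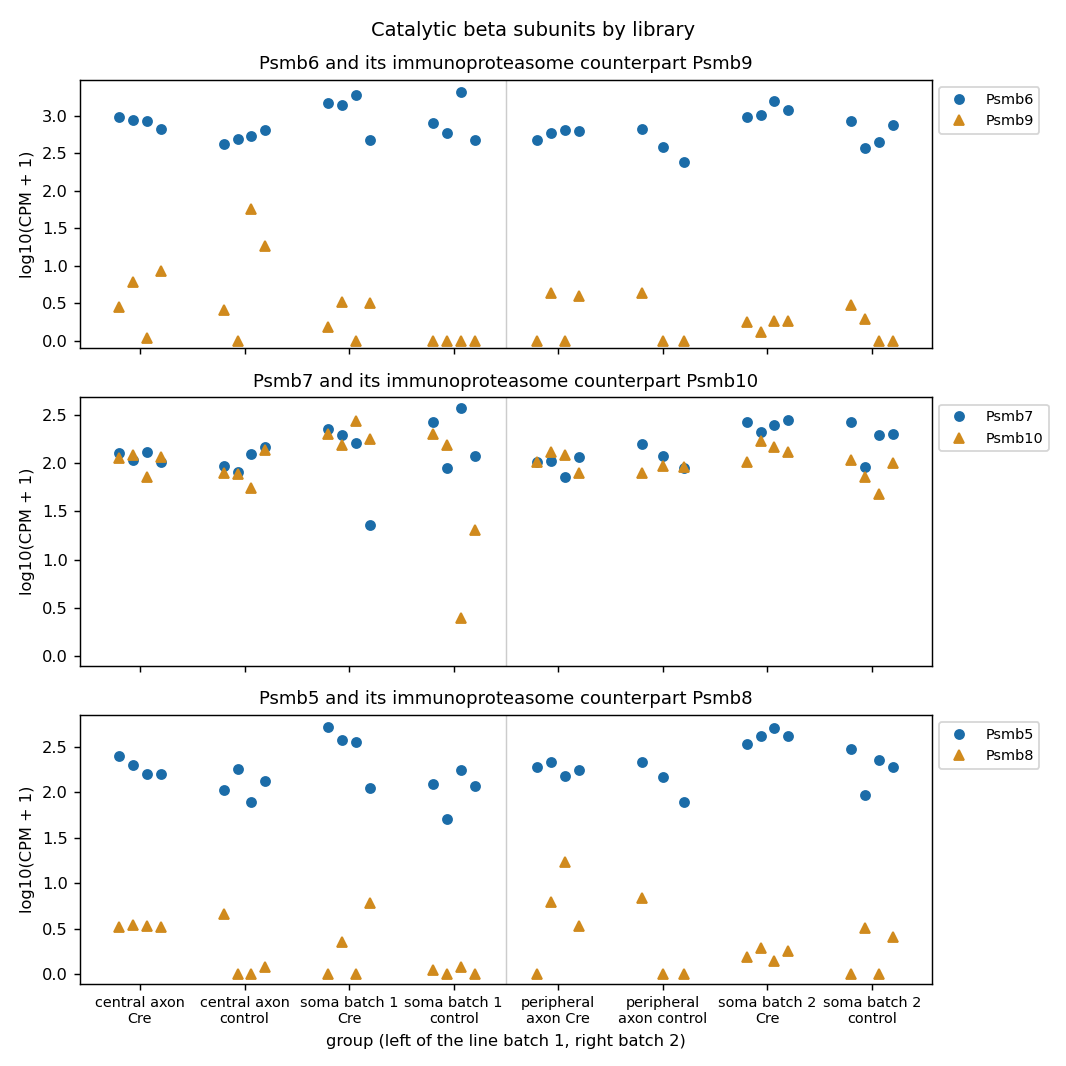
Levels of the constitutive active-site genes Psmb6, Psmb7 and Psmb5 beside their immunoproteasome alternatives Psmb9, Psmb10 and Psmb8, as log10 of CPM plus 1, for every library of the 8 groups. Over all 31 libraries Psmb8 reached at most 16.4 CPM and Psmb9 at most 55.9 CPM, while Psmb10 ran from 1.51 to 272 CPM and Psmb6 from 245 to 2079 CPM. In the Cre libraries alone, Psmb10 ran from 71.7 to 272 CPM and Psmb6 from 474 to 1933 CPM.

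The activators bind the ends of the core without, or beside, the 19S particle. Psme1 and Psme2 encode the subunits of PA28 alpha-beta and lie 5911 bases apart on chromosome 14. Psme3 encodes nuclear PA28 gamma, and Psme4 encodes PA200. Psme3, on chromosome 11 from 101316213 to 101323537, measured 81.7, 53.5, 24.6 and 46.5 CPM in peripheral axon Cre, and 120, 92.5, 106 and 109 CPM in soma Cre of batch 2. The groups did not overlap, and it was the activator that fell in the peripheral axon (log2 fold change -1.29, SE 0.30, adjusted p = 0.0079 by edgeR). In batch 1 it measured 103, 144, 218 and 111 CPM in central axon Cre and 142, 108, 147 and 99.5 CPM in soma Cre, with overlap (-0.25, adjusted p = 0.65).

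Psme1 measured 152, 104, 158 and 110 CPM in central axon Cre and 154, 175, 226 and 82.0 CPM in its soma. In batch 2 it measured 82.4, 127, 220 and 106 CPM in the axon and 169, 144, 248 and 215 CPM in the soma. Psme2 measured 61.2, 47.0, 44.6 and 35.8 CPM in central axon Cre and 88.1, 74.89, 74.98 and 40.2 CPM in its soma. The axon and soma values of both genes overlapped in batch 1. In batch 2, Psme2 measured 74.4, 126, 80.0 and 97.1 CPM in the axon and 119, 118, 169 and 136 CPM in the soma. Neither PA28 alpha-beta gene passed the test. Psme2 came closest (log2 fold change -0.9965 with adjusted p = 0.078 centrally and -0.72 with 0.072 peripherally, edgeR).

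Psme4 measured 45.5, 73.8, 32.7 and 60.2 CPM in central axon Cre and 34.0, 45.4, 37.7 and 54.4 CPM in its soma. In batch 2 it measured 142, 63.9, 59.1 and 83.4 CPM in peripheral axon Cre and 66.9, 47.0, 48.5 and 49.0 CPM in its soma. It overlapped in both and passed neither test (log2 fold change -0.13 with adjusted p = 0.83 centrally and 0.49 with 0.20 peripherally, edgeR). Its peripheral estimate was one of 5 above 0 among the 48 members.

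Psmf1 encodes PI31, which inhibits the core in vitro and is known as an adaptor that links proteasomes to axonal transport motors. It measured 90.5, 56.7, 14.9 and 49.8 CPM in peripheral axon Cre and 152, 98.9, 129 and 118 CPM in soma Cre of batch 2. Every axon library was below every soma library, and the log2 fold change was -1.48 (SE 0.40, adjusted p = 0.016 by edgeR). In central axon Cre it measured 104, 104, 188 and 95.9 CPM, and in soma Cre of batch 1 119, 124, 101 and 35.1 CPM, which overlapped (-0.09, SE 0.40, adjusted p = 0.91).

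The chaperones that build the enzyme followed no single pattern. Of the 3 for the 19S base, Psmd9 and Psmd10 fell in the central axon (log2 fold changes -1.12 and -1.26, adjusted p = 0.028 and 0.033 by edgeR). Psmd5, the other base chaperone, had an estimate of 0.42 there (SE 0.37, adjusted p = 0.49). Psmd10 measured 21.8 to 53.8 CPM in central axon Cre and 64.9 to 81.9 CPM in soma Cre, without overlap. Psmd9 measured 82.0 to 115 CPM and 107 to 173 CPM, with overlap, and 25.5% of its exon length is antisense to Gm26745. Of the 4 core chaperones, only Psmg3 fell centrally and none peripherally.

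The next comparison asked which members stood above the pulldown background, by setting Cre against control libraries of the same tissue. No member passed the test in any of the 4 comparisons by edgeR. In the central axon 0 of 47 were called (0.0141% of all genes), with 3 at an unadjusted p under 0.05 (4.82% of all genes) and 0 by DESeq2. The median log2 fold change was 0.56 for core and 0.37 for regulatory members, against 0.11 for all genes. Groups did not overlap for Psmb2, Psmb6, Psmc4 and Psmc5, all higher in Cre, 4 of 47 beside 6.82% of all genes. Psmb6 had a log2 fold change of 0.74 (SE 0.28, adjusted p = 0.83 by edgeR). Scn10a, the gene whose promoter drives Cre, did not pass Cre against control in any tissue. Its log2 fold changes were 4.52 in central and 1.59 in peripheral axon (adjusted p = 0.82 and 0.9999 by edgeR). In somas of batches 1 and 2 they were -0.47 and 0.26 (adjusted p = 0.85 and 0.69). Rpl10a did not pass either (-0.16, 0.67, 0.74 and -0.02 in the same order).

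In the peripheral axon 0 of 47 members were called by edgeR (0% of all genes), with 0 at an unadjusted p under 0.05 (3.68% of all genes) and 0 by DESeq2. The core median was 0.38 and the regulatory median 0.03, which was -0.06 with scaling by library size alone. The sciatic nerve control values for Psmd1 were 256, 158 and 329 CPM, beside 169 to 197 CPM in Cre. For the scaffold subunit, then, the control range enclosed the Cre range.

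In somas of batch 2 the members with the smallest adjusted p were Psmd11 and Psmb5. Psmd11, a lid subunit, measured 183, 126, 224 and 213 CPM in soma Cre and 139, 81.6, 78.0 and 63.6 CPM in control. These groups overlapped by 1 library, and the log2 fold change was 1.31 (SE 0.33, adjusted p = 0.089 by edgeR). Psmb5 measured 297, 91.3, 227 and 186 CPM in control, all below the 333 to 508 CPM of soma Cre (log2 fold change 1.34, SE 0.36, adjusted p = 0.10 by edgeR). Psmb6, Psmd4 and Psmd9 also did not overlap, which made 4 of 47 members, beside 4.29% of all genes.

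In that comparison 0 of 47 were called (0% of all genes), 16 had an unadjusted p under 0.05 against 16.4% of all genes, and DESeq2 called 4 higher. The estimate was above 0 for 43 of 47 members and for 52.7% of all genes. The medians were 0.56 for core, 0.76 for regulatory and 0.06 for all genes. Without control 5, 11 members were called higher, and 11.7% of all genes were called.

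In soma batch 1 the control libraries spread widely. Psmg1, a core chaperone, was at 1073 CPM in control 3 and at 0 to 0.251 CPM in the other 3 controls, and Psmb10 was at 1.51 CPM in control 3. With control 3, 0 of 46 members were called by edgeR (4.42% of all genes), 4 had an unadjusted p under 0.05 (15% of all genes), and DESeq2 called 2 lower. The core median was -2.58 and the regulatory median -0.82, with -0.45 for all genes. Without control 3 the signs turned, to 0.62 for core and 0.14 for regulatory members, and 1 member was called higher (24.3% of all genes called). With scaling by library size alone they were 0.45 and 0.16.

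Whether axon and soma differed more in Cre than in control libraries was tested as a difference of fold changes. No member passed centrally (0 of 48 by edgeR and 0% of all genes, with 3 at an unadjusted p under 0.05, beside 20.4%, and 0 by DESeq2). None passed peripherally either (0 of 47 by edgeR and 0.00636% of all genes, with 4 at an unadjusted p under 0.05, beside 9.74%, and 0 by DESeq2). The central core median was -0.02, and 2.42 with RLE scaling, so that its sign depended on the scaling. It also depended on single libraries, from -0.42 without soma control 3 of batch 1 to 3.33 without soma control b. The peripheral medians were -0.33 for core, -0.62 for regulatory and 0.13 for all genes, and 40 of 47 estimates were below 0 (45.9% of all genes). The member with the smallest p was Psmd4, with a difference of -1.50 (SE 0.55, adjusted p = 0.37). The lower axonal values in Cre libraries were thus not shown to differ from those in controls.

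The axon was therefore also set against the soma among control libraries alone, a comparison chosen after the data were seen. In batch 1 no member passed (0 of 44 by edgeR and 0% of all genes, with 5 at an unadjusted p under 0.05, beside 12.4%, and 0 by DESeq2). With all groups of batch 1 in a single fit, 5 were called, 2 higher and 3 lower, beside 25.1% of all genes. All 15 core members tested had an estimate below 0 (52.9% of all genes), with a median of -1.37 that ran from -4.55 to -0.53 as single libraries were left out. The regulatory median was -0.91, with 19 of 24 below 0, and the median of all genes was -0.16. In batch 2 no member passed (0 of 45 by edgeR and 0.0802% of all genes, with 0 at an unadjusted p under 0.05, beside 9.78%, and 0 by DESeq2). There 14 of 15 core members were below 0 (median -0.65) and 16 of 24 regulatory members (median -0.22), with 53.3% of all genes below 0 and a median of -0.11. Lower estimates in axon than soma were therefore also present for core members in libraries without Cre.

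**Figure D4:**
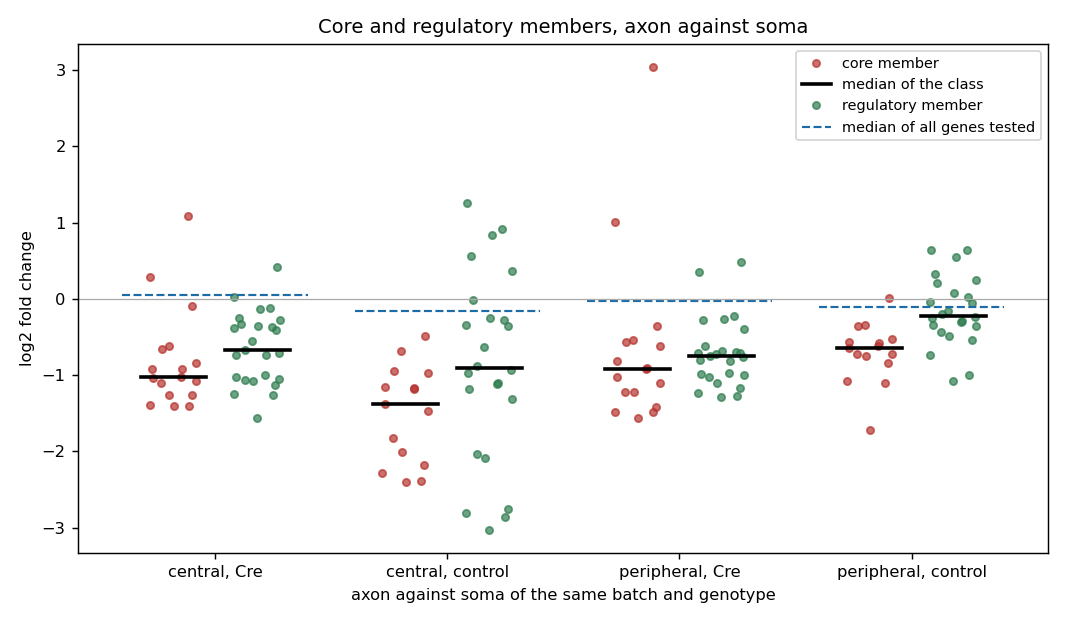
Log2 fold change of axon against soma for core and regulatory members, in Cre and in control libraries of each batch. Points are members, bars their medians, and the marked level the median of all genes tested. Core medians were -1.02 (Cre) and -1.37 (control) centrally and -0.92 and -0.65 peripherally. They cover 17 core members in Cre and 15 in control libraries of each batch. The central control median ran from -4.55 to -0.53 as single libraries were left out.

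The genes around the proteasome were taken from a list of 30 ubiquitin genes, shuttle factors, deubiquitinases, assembly factors and transcription factors, of which 29 had a row. In the central axon against soma 9 of 29 passed the test (31%, beside 13.7% of all genes), 8 lower (5.11% of all genes) and 1 higher, with a median of -0.64. Pomp, the maturation factor of the core, measured 233 to 436 CPM in central axon Cre and 620 to 1006 CPM in soma Cre, without overlap (log2 fold change -1.78, SE 0.36, adjusted p = 0.0077 by edgeR). Sem1, a small 19S lid subunit whose symbol lies outside the Psm names, measured 188 to 365 CPM and 478 to 1378 CPM (log2 fold change -1.84, SE 0.41, adjusted p = 0.012). Both fell without overlap between the groups. Ubqln4, a shuttle factor, rose from 20.9 to 28.0 CPM in the soma to 43.6 to 91.6 CPM in the axon (0.99, adjusted p = 0.049). In controls, however, Ubqln4 measured 1.11 to 162 CPM in the central axon and 1.73 to 299 CPM in the soma of batch 1.

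In the peripheral axon 11 of 29 passed (37.9%, beside 31.2% of all genes), 9 lower (12.5% of all genes) and 2 higher, with a median of -0.52. Ubb, a polyubiquitin gene, measured 404 to 535 CPM in peripheral axon Cre and 916 to 1986 CPM in soma Cre (log2 fold change -1.90, SE 0.33, adjusted p = 0.0016 by edgeR). Uchl5, a deubiquitinase of the 19S particle, measured 20.9 to 43.9 CPM and 47.4 to 110 CPM (-1.65, adjusted p = 0.0048). Zfand2a, a stress-induced partner of the 19S particle, measured 27.5 to 50.1 CPM and 47.6 to 103 CPM (-1.27, adjusted p = 0.0062). Of these 3 lower genes only Zfand2a overlapped between the groups. The genes that rose were Nfe2l2, the antioxidant transcription factor Nrf2 (1.94, SE 0.51, adjusted p = 0.014 by edgeR), and Rps27a, which encodes a ubiquitin and ribosomal protein fusion (1.21, SE 0.42, adjusted p = 0.047). Nfe2l2 measured 15.1 to 79.3 CPM in peripheral axon Cre and 6.26 to 14.4 CPM in soma Cre, but 30.8 to 281 CPM in the nerve controls.

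Of the related genes, 4 passed the test of central against peripheral axon (13.8% of 29, beside 13.1% of all genes). Sem1 (-2.39, SE 0.54, adjusted p = 0.0074 by edgeR), Rps27a (-2.20, SE 0.54, adjusted p = 0.012) and Rad23b, a shuttle factor (-1.72, SE 0.54, adjusted p = 0.040), were lower centrally relative to soma. Uchl5 was higher (1.67, SE 0.49, adjusted p = 0.029). Rps27a measured 19.7 to 27.8 CPM in soma Cre of batch 1 and 223 to 303 CPM in soma Cre of batch 2, so that its level also differed between the batches within the same tissue. Sem1 measured 349 to 782 CPM in peripheral axon Cre and 244 to 340 CPM in its soma, opposite in direction to the central axon. That peripheral difference did not pass the test (log2 fold change 0.72, SE 0.35, adjusted p = 0.13 by edgeR). Its level in soma Cre also differed between the batches, at 478 to 1378 CPM in batch 1. None of the 29 passed in the Cre against control comparisons.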

How the data were processed

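RNA came from TRAP pulldowns and was made into libraries with a SMART-Seq v4 kit, per the labels' protocols, from under 100 pg of axonal and under 1 ng of somatic RNA. The deposited values are raw counts per gene, which the authors derived from reads aligned to mm10 with STAR 2.7.2b, per the submitters' processing notes. The counting tool and its strand setting are not given in the sources used here, so that overlapping and antisense genes may share reads. All 55536 gene identifiers matched GENCODE M21, and no column was left out. Groups come from the labels. A pair of soma control columns of batch 1 share a header and are called a and b. No replicate pair of the 45 agreed within sampling noise (smallest chi-square per degree of freedom 24.8). Replicates are described as biological, but animals are not identified, and p-values measure the spread between these libraries.

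Each comparison was fitted with edgeR 4.0.16 (R 4.3.3) on all genes kept by filterByExpr, with TMM scaling, glmQLFit and glmQLFTest, and Benjamini-Hochberg adjustment over all genes (threshold 0.05). Only the groups compared entered a fit. Members tested passed this low-count filter, which retains genes that are high in one group alone. CPM is the count divided by the library total in M counts. Intervals are Wilson intervals (95%) and floors are 3 counts, both for counting error only. Alternatives were DESeq2 1.42.0, its size factors (RLE) in edgeR, library size alone, no filter, all groups of a batch in a fit, a replicate block, and leaving out each library.

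The members and lists were chosen with earlier results of these data known. Named were Psma1, Psmd1, the catalytic and activator genes, up to 4 called members per direction and comparison by adjusted p, and up to 3 called related genes likewise, of which 1 is not reported here. Others were named after their values were seen, chiefly Psmf1, Psmg1, Psmg4, Psmd5, Psmd9 to Psmd11, Psmc2, Psmb4 and Psmd4. On simulated counts 200 genes were changed. In the central comparison (15288 genes) the fit recovered 78% of those changed by 3 (log2) and 0% of those changed by 1. In the peripheral one (16542 genes) it recovered 77% and 2%. The difference of the axons recovered only 21% of the changes of 3. The comparisons of Cre relative to control recovered 26% centrally and 20% peripherally, so these tests could miss most changes of that size.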

Additional observations from a re-analysis of the deposited data

Results flagged for a closer look

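In groups of 4 libraries a value was singled out when the gap to its nearest neighbour passed Dixon's 95% limit as a share of the group's range. Of 132 groups tested over 19 quantities, 13 did so, where chance gives about 1 in 20. Among control libraries, Psma1 was at 313 CPM in central axon control 3 (others 152 to 175), and Psmg3 at 41.6 CPM in the same library (24.1 to 26.1). Psmb8 was at 3.56 CPM in central axon control 1 (0 to 0.205). In soma controls of batch 1, Psme1 was at 203 CPM in control 3 (28.8 to 47.3) and Psmg3 at 9.89 CPM in control b (0 to 0.539).

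Among Cre libraries, Psmd1 was at 286 CPM in central axon Cre 3 (others 147 to 165). Peripheral axon Cre 3 stood apart for 3 genes, with Psmd13 at 106 CPM (293 to 330), Psmg3 at 16.1 CPM (46.5 to 48.9) and Psmb3 at 361 CPM (193 to 221). In soma Cre of batch 2, Psme4 was at 66.9 CPM in library 5 (47.0 to 49.0), Psmb9 at 0.321 CPM in library 6 (0.812 to 0.866) and Psmb3 at 557 CPM in library 7 (391 to 414). The regulatory sum was 5089 CPM in library 6 of that group (7103 to 7518).

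Of the related genes, 4 differed between central and peripheral axon, each relative to soma, by edgeR's test of the difference. The log2 differences were -2.39 for Sem1, -2.20 for Rps27a, -1.72 for Rad23b and 1.67 for Uchl5.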

How the results depend on the processing

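Of 167 alternative counts of members called, 139 stayed within 1.5 times the reported count and 28 moved. Those that stayed include counts of 0 that remained 0. With a library left out, the count stayed in 0 of 8 fits of the central axon against soma in Cre libraries. In the peripheral comparison it stayed in 6 of 8. With DESeq2 the central and peripheral axon against soma gave 19 and 32 calls, the difference of the axons 1, soma Cre against control 2 (batch 1) and 4 (batch 2). Library size alone gave 5 calls in the central comparison, and RLE scaling 1 for the difference of the axons. With all groups of a batch in a fit, the central comparison gave 0 calls, the peripheral 9, soma batch 1 Cre against control 2, and the central comparison among controls 5. Without the low-count filter, soma batch 1 Cre against control gave 1, and the central comparison relative to control 1. Leaving out each library gave 3 to 24 calls centrally, 9 to 25 peripherally, 0 to 2 for the difference of the axons, 0 to 1 and 0 to 11 for Cre against control in somas of batch 1 and 2, and 0 to 2 for the central comparison relative to control.

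Of 108 alternative tests of single called members (Psma1, Psma5, Psmb3, Psmb5, Psmb7, Psmb10, Psmd13 and Psmg3), 98 kept the call, 10 lost it and none turned its sign. Of 334 alternative class medians 29 turned their sign, 16 of them in the central comparison relative to control and 7 in soma batch 1 Cre against control; none belonged to axon against soma in Cre libraries. With all groups of batch 1 in a fit, the adjusted p of Psmd13, Psmg3, Psmb10 and Psmb3 in the central comparison was 0.957 to 1.00.

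Same-numbered central axon and soma Cre libraries had correlated deviations of 0.25, -0.10, 0.15 and 0.25 (replicates 1 to 4). One pair was not above 0.1, so the number was not taken as a pairing, and a shared source was not tested. With that number as a replicate block, 15 members were called centrally, including the 11 called without it, and Cre against control gave 0 throughout. No paired analysis was possible for peripheral axon against soma because those groups share no replicate number.

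Changes of 1 (log2) were rarely recovered on simulated counts with a dispersion of 0.35, which was the same in every comparison. In the data the square root of the fitted dispersion ran from 0.614 (peripheral axon against soma, Cre) to 1.72 (central axon against soma, control). Recovery at the wider spread of the fits with controls was not simulated, nor was recovery at the members' own spread. Members with changes of about 1 (log2) were called in axon against soma, so the simulated shares do not give the recovery of members. The effect of the low RNA input was not tested.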
